A study of Mus musculus with 6 samples.

Results

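The genes described here encode the eukaryotic translation initiation factors and the 4E-binding proteins. They were chosen by name: every gene in the deposited table whose symbol starts with Eif and a digit, leaving out the eIF2 alpha kinases (symbols starting with Eif2ak). This gave 51 of 24848 genes. Of the 51, 47 reached 1 CPM (reads of the gene scaled to the library total) in 3 or more of the 6 libraries and were tested, among 10614 tested genes.

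The libraries came from RAW 264.7 cells, a mouse macrophage-like tumour line, with the genotype APOBEC1 KO (3 libraries) or WT (3 libraries). APOBEC1 is an enzyme that changes C to U in RNA. Both lines grew in high glucose DMEM with endotoxin low fetal bovine serum and no treatment is named. Each library came from its own plate. The labels do not say how the gene was disrupted or whether the KO line is 1 clone, so the effect of the genotype cannot be told apart from other differences between the lines. Each p-value measures the spread between plates, which may be technical.

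Translation initiation begins when eIF2 carries the initiator tRNA to the small ribosomal subunit, which eIF1, eIF1A, eIF3 and eIF5 help to prepare and to place on the start codon. The mRNA is brought in by eIF4F, made of the cap-binding protein eIF4E, the scaffold eIF4G and the helicase eIF4A. The 4E-binding proteins hold eIF4E away from eIF4G until the kinase mTORC1 phosphorylates them, and eIF2B recharges eIF2 with GTP, a step that stress kinases block.

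Apobec1 itself had 339, 340.1 and 361 CPM in KO, all below the 373, 431 and 396 CPM in WT, and was not called (log2 fold change -0.20 ± 0.07, limma adjusted p = 0.0663). Its mRNA level therefore does not check the genotype labels. Apobec1 lies on chromosome 6, where the tested genes had a median log2 fold change of -0.16. Total reads per library, recovered from the CPM, ran from 59768682 to 70411383 in KO and from 50493447 to 67392191 in WT. The tested members had at least 625 reads in every library. All 9 macrophage markers examined stood at 1 CPM or more in every library, and their summed level was 3740.1 to 4151 CPM in KO and 3502 to 3612 CPM in WT. Single markers went both ways: Lyz2 averaged 1238 CPM in KO and 708 CPM in WT, while Csf1r averaged 747 CPM in KO and 865 CPM in WT, and Adgre1 and Fcgr1 were also lower in every KO library than in any WT library. The part of these markers in the results was not tested. No marker examined of fibroblasts, T cells, epithelium, endothelium or neutrophils reached 1 CPM in every library, and Cd3e, Col1a1 and Krt18 were listed at 0. Among neutrophil markers S100a8 averaged 3.99 CPM in KO and 0.944 CPM in WT, while Ly6g, Elane and S100a9 were listed at 0; its part in the results was not tested. WT replicate 1 stood farthest from the rest: over the 47 tested members its median absolute distance from the mean of the other WT libraries was 0.17 (log2), against 0.05 to 0.09 for each KO library and 0.11 and 0.08 for WT replicates 2 and 3.

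Most initiation factor genes were close in level between the genotypes. Of the 47 tested members, 5 rose in KO (Eif2s2, Eif6, Eif3m, Eif1ad and Eif2b3), 3 fell (Eif3h, Eif4b and Eif3f) and 39 did not pass the test. A gene was called at an adjusted p under 0.05 in limma, fitted on log2(CPM + 0.5) over all tested genes with Benjamini-Hochberg adjustment. The share of members called was 17.0% (10.6% higher and 6.38% lower), and that of all tested genes was 30.4% (13.5% higher and 16.9% lower).

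The changes were also small. No member (0 of 47) differed by a log2 fold change of 1 or more. Of all tested genes 3.70% did, a share so low that 0 among 47 does not set the members apart. The tested genes go down to the minimum of 1 CPM, while every tested member averaged at least 11.2 CPM in each genotype. The part of level in these comparisons of size was not tested. The median absolute log2 fold change was 0.14 over the members and 0.18 over all tested genes, and the signed medians were 0.03 and -0.02. For 20 of the 47 members (42.6%) the values of the genotypes did not overlap, against 46.4% of all tested genes. KO was above WT in 14 of them and below in 6, against 20.9% and 25.4% of all tested genes. Without WT replicate 1, limma called 8 members higher and 3 lower, and 1643 and 1884 of 10402 tested genes. The count of members called lower was 1 under each of TMM scaling, edgeR, centring by chromosome and the replicate block. It was also 1 on leaving out KO replicate 3 or WT replicate 3. Those settings called 1118 to 1720 of all tested genes lower, against 1794 in the main setting.

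**Figure D1:**
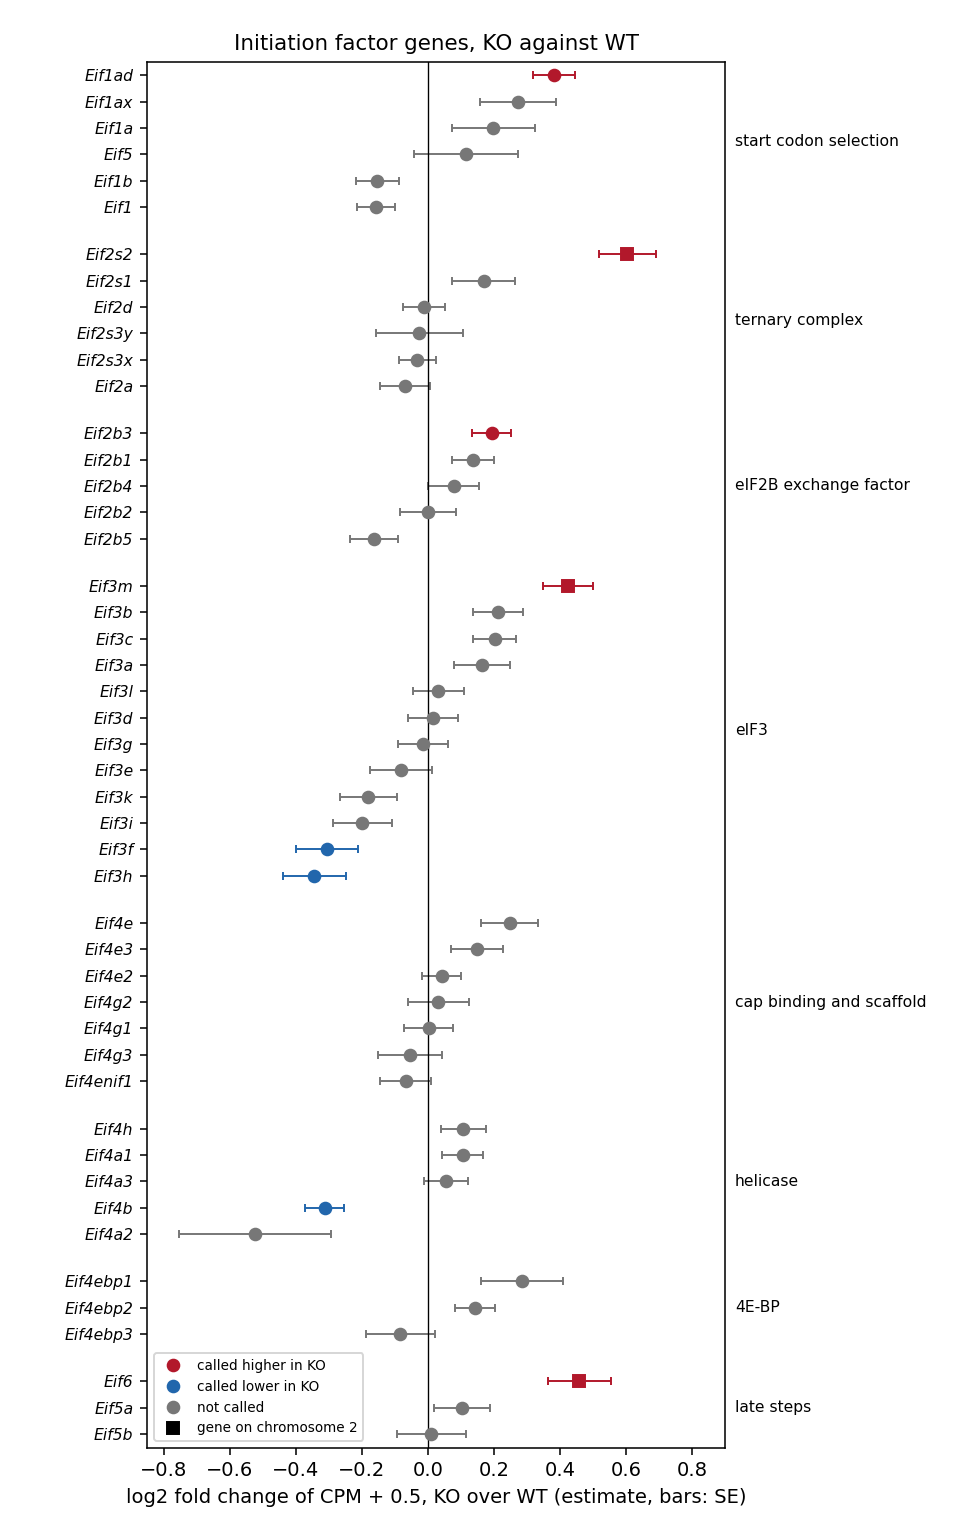
Log2 fold change of each of the 47 tested members (x axis, KO over WT on log2(CPM + 0.5); points are estimates, bars SE), grouped by role. Red points were called higher in KO, blue lower, grey were not called, and squares lie on chromosome 2; the values run from -0.52 (Eif4a2, not called) to 0.60 (Eif2s2).

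The largest rise was that of Eif2s2, which encodes the beta subunit of eIF2, the subunit that contacts eIF5 and eIF2B (ENSMUSG00000074656.12, mm10 chromosome 2, 154871410 to 154892935, minus strand). Eif2s2 stood at 612, 558 and 572 CPM in KO replicates 1, 2 and 3, against 339, 400.0 and 410.1 CPM in WT replicates 1, 2 and 3. All KO libraries were above all WT libraries, and WT replicate 1 was the lowest. The log2 fold change was 0.60 ± 0.09 (SE), or 1.52-fold (limma adjusted p = 0.00157). Of the read-length windows (125 bases) of the Eif2s2 transcript 15.9% also occur in Gm9892. How reads that match both were counted is unknown.

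The other subunits of eIF2 did not pass the test. Eif2s1, the alpha subunit that the stress kinases phosphorylate, had 271, 255 and 254 CPM in KO and 199, 254 and 244 CPM in WT. The genotypes did not overlap, but by a narrow margin at WT replicate 2, and the log2 fold change was 0.17 ± 0.10 (limma adjusted p = 0.218, 95% interval -0.05 to 0.39). Without WT replicate 1 it was 0.06 (limma adjusted p = 0.416). The gamma subunit, which binds GTP and the tRNA, is encoded by a gene on the X chromosome and a copy on the Y chromosome. Eif2s3x had 172, 176 and 166 CPM in KO and 172, 179 and 175 CPM in WT. Eif2s3y had 99.1, 89.5 and 96.1 CPM in KO and 78.1, 115 and 100.1 CPM in WT. Both overlapped, with log2 fold changes of -0.03 ± 0.06 and -0.03 ± 0.13 (95% intervals -0.16 to 0.10 and -0.33 to 0.28). Of the read-length windows of Eif2s3x 34.8% also occur in Gm2223, so its level depends on how such reads were counted.

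Within each library the level of Eif2s2 relative to Eif2s1, both per kilobase of transcript, was 3.03, 2.93 and 3.02 in KO and 2.28, 2.11 and 2.25 in WT. It averaged 2.99 ± 0.05 in KO and 2.22 ± 0.09 in WT (SD, n = 3 each), without overlap. With 3 libraries a side, p cannot go under 0.1 in a two-sided exact permutation test, and it was 0.1. The ratio was chosen after the values were seen, 1 of 8 such ratios computed. It sets a gene on chromosome 2 against one on chromosome 12, and after the centring by chromosome described further on the log2 fold changes were 0.27 for Eif2s2 and 0.19 for Eif2s1. Eif2a and Eif2d, which can deliver initiator tRNA outside the eIF2 complex, had log2 fold changes of -0.07 ± 0.08 and -0.01 ± 0.06 and were not called.

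Of the 5 subunits of eIF2B, the exchange factor that recharges eIF2, 1 rose, beside 13.5% of all tested genes. Eif2b3, the gamma subunit (ENSMUSG00000028683.14, chromosome 4, 117019402 to 117087306, plus strand), had 54.7, 53.0 and 53.4 CPM in KO and 47.0, 46.2 and 47.5 CPM in WT. The libraries of each genotype lay within 2 CPM of each other and the genotypes did not overlap (log2 fold change 0.19 ± 0.06, limma adjusted p = 0.0399). It was not called under 8 of 18 alternative settings: quantile normalization, the replicate block, scaling without Rn45s, and every omission of a single library except WT replicate 1 (limma adjusted p = 0.0925 to 0.140 for these). Eif2b1, Eif2b2, Eif2b4 and the catalytic Eif2b5 ran from -0.16 (Eif2b5) to 0.14 (Eif2b1) and were not called.

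Among genes of start codon selection, 1 of 6 rose, beside 13.5% of all tested genes. Eif1ad encodes a protein with a domain like that of eIF1A (ENSMUSG00000024841.8, chromosome 19, 5366741 to 5371526, plus strand). It had 155, 159.7 and 151 CPM in KO and 127, 115 and 116 CPM in WT, without overlap, and a log2 fold change of 0.38 ± 0.06 (limma adjusted p = 0.00322). It was the single member called under all 18 alternative settings. Its exons share 15.3% of their bases with Banf1, which runs on the opposite strand. Whether reads were counted by strand is unknown, so those of the 2 genes cannot be told apart there. Banf1 averaged 130.0 CPM in KO and 129.8 CPM in WT and was not called (log2 fold change 0.01 ± 0.09).

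The other members of that group moved in different directions. Eif1, which guards against wrong start codons, had 240.1, 247 and 246 CPM in KO and 280.0, 261 and 276 CPM in WT. Eif1b, its paralog, had 35.4, 36.0 and 34.3 CPM in KO and 40.7, 38.8 and 38.0 CPM in WT. Both were lower in every KO library than in any WT library but missed the threshold (log2 fold changes -0.16 ± 0.06 and -0.15 ± 0.06, limma adjusted p = 0.0743 and 0.114). The pair Eif1a and Eif1ax, which encode eIF1A, had log2 fold changes of 0.20 ± 0.13 and 0.27 ± 0.12 (limma adjusted p = 0.276 and 0.113). WT replicate 1 was the low library in both, at 189 CPM for Eif1a and 119.6 CPM for Eif1ax. Without that library the log2 fold changes were 0.05 for Eif1a and 0.13 for Eif1ax (limma adjusted p = 0.611 and 0.113). Eif1ax was called without WT replicate 2 (0.35, limma adjusted p = 0.0477) and by DESeq2 (adjusted p = 0.0405), and Eif1 was called lower with quantile normalization (-0.23, limma adjusted p = 0.0319).

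**Figure D2:**
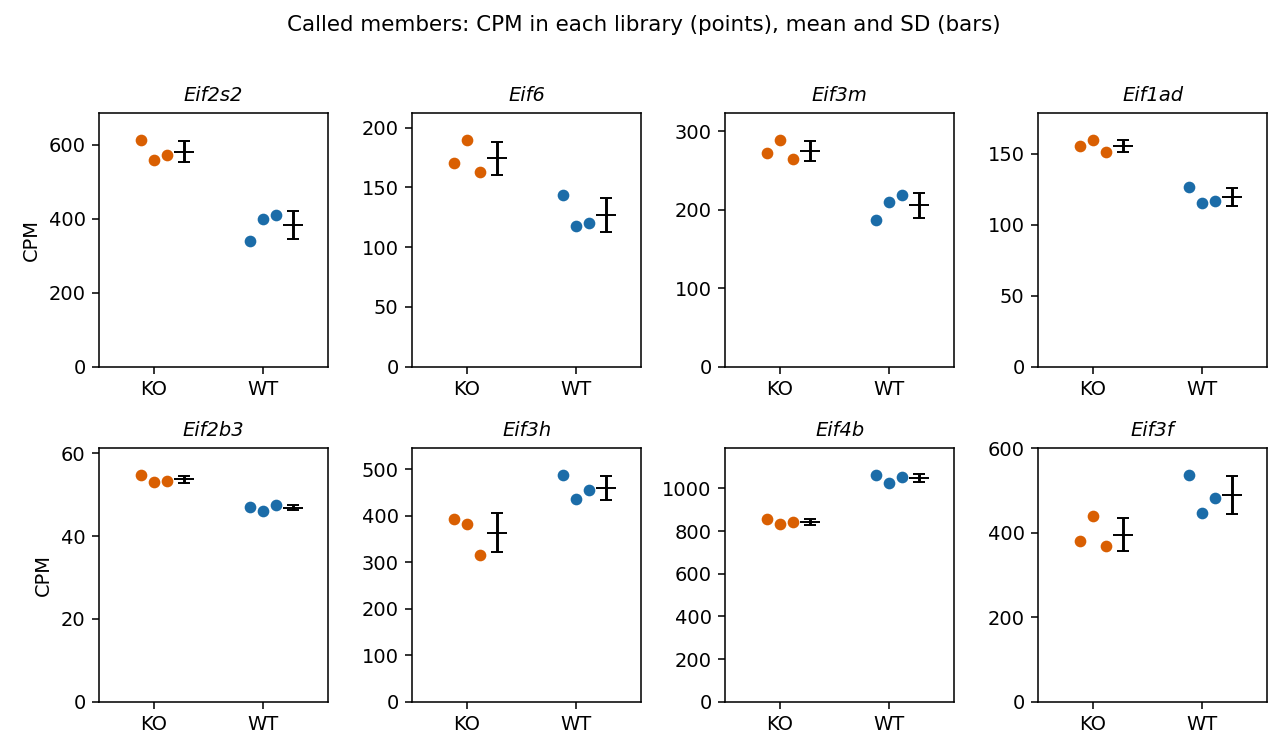
CPM of the 8 called members in each library (points, KO left and WT right of each panel; bars are mean and SD, n = 3). In every panel the KO and WT points do not overlap; for Eif3f the nearest points are 440.0 CPM in KO and 448 CPM in WT.

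Subunits of eIF3, the large complex that bridges the small ribosomal subunit and eIF4G, changed in both directions. Of 14 genes 12 were tested: Eif3m rose, Eif3h and Eif3f fell, and 9 did not pass the test (median log2 fold change 0.00). Eif3m (ENSMUSG00000027170.12, chromosome 2, 104999656 to 105017080, minus strand) had 273, 289 and 264 CPM in KO, all above the 187, 210.5 and 219 CPM in WT. Its log2 fold change was 0.42 ± 0.08 (1.34-fold, limma adjusted p = 0.00469). The Eif3m call was lost with the centring by chromosome described further on.

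Eif3h and Eif3f encode the subunits of eIF3 with an MPN domain, a fold also found in the proteasome lid. Eif3h (ENSMUSG00000022312.11, chromosome 15, 51786558 to 51865523, minus strand) had 393, 382 and 315 CPM in KO and 488, 436 and 456 CPM in WT. KO replicate 3 was the lowest, and the genotypes did not overlap (log2 fold change -0.34 ± 0.09, limma adjusted p = 0.0283). Eif3f (ENSMUSG00000031029.6, chromosome 7, 108934417 to 108942951, plus strand) had 379.8, 440.0 and 368 CPM in KO and 537, 448 and 484 CPM in WT. KO replicate 2 lay just under WT replicate 2, and the log2 fold change was -0.31 ± 0.09 (limma adjusted p = 0.0427). The Eif3h call was lost under 6 of 18 alternatives and the Eif3f call under 10, TMM scaling and edgeR included in both. Leaving out KO replicate 2, KO replicate 3 or WT replicate 3 gave Eif3h limma adjusted p = 0.0515, 0.0633 and 0.0804. Leaving out KO replicate 1, KO replicate 3, WT replicate 1 or WT replicate 3 gave Eif3f limma adjusted p = 0.146, 0.131, 0.0674 and 0.107. Both genes were lower in KO under all 18 settings, but without overlap the omission of a single library could not have changed that.

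The 9 remaining subunits, not called in the main test, are given here in order of their estimates. Eif3b, Eif3c and Eif3a, which form the scaffold, had log2 fold changes of 0.21 ± 0.08, 0.20 ± 0.07 and 0.17 ± 0.09. Eif3c came closest to the threshold, with 598, 614 and 600.1 CPM in KO, against 562, 499.5 and 516 CPM in WT (limma adjusted p = 0.0504). Eif3l, Eif3d, Eif3g and Eif3e lay between 0.03 and -0.08. Eif3k and Eif3i had log2 fold changes of -0.18 ± 0.09 and -0.20 ± 0.09, with KO and WT overlapping. Without WT replicate 1, Eif3b and Eif3c were called higher (0.27 and 0.25, limma adjusted p = 0.0124 and 0.00993), as they were by DESeq2 on all 6 libraries (adjusted p = 0.0351 and 0.0239). Both genes for the loosely bound subunit eIF3j, Eif3j1 and Eif3j2, were listed at 0 in all 6 libraries. Of the read-length windows (125 bases) of the Eif3j2 transcript 80.5% occur unchanged in Eif3j1, and 34.3% of those of Eif3j1 in Eif3j2. Windows of Eif3j1 found in any other gene made up 44.3%, and the rest occur in no other annotated gene. How reads that match several genes were counted is unknown, and why both genes were listed at 0 was not tested.

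Among the 5 helicase genes 1 fell, Eif4b, beside 16.9% of all tested genes. It encodes eIF4B, which stimulates the helicase eIF4A (ENSMUSG00000058655.9, chromosome 15, 102073773 to 102097173, plus strand). Eif4b had 858, 832 and 842 CPM in KO and 1062, 1026 and 1055 CPM in WT. The gap between the genotypes was wide against the spread within each, and the log2 fold change was -0.31 ± 0.06 (limma adjusted p = 0.00558). With the replicate block, the adjusted p was 0.0506.

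The eIF4A genes and Eif4h did not pass the test in limma on the CPM as deposited. Eif4a1, the main helicase gene, had 1345, 1397 and 1312 CPM in KO, just above the 1270.3, 1239 and 1255 CPM in WT (log2 fold change 0.11 ± 0.06, limma adjusted p = 0.235). With quantile normalization it was called higher (0.22, limma adjusted p = 0.0372). Of its read-length windows 58.7% also occur in the pseudogene Eif4a-ps4. Eif4a2, its paralog, had the largest negative estimate of any member, but with 81.9, 60.4 and 101 CPM in KO and 89.9, 155 and 106 CPM in WT the genotypes overlapped. Its log2 fold change was -0.52 ± 0.23 (limma adjusted p = 0.126, 95% interval -1.06 to 0.01). The estimate rested on single libraries: it was -0.33 without KO replicate 2, -0.30 without WT replicate 2 and -0.69 without WT replicate 1 (limma adjusted p = 0.345, 0.237 and 0.0462). DESeq2 called Eif4a2 lower (adjusted p = 0.0310). Eif4a3, a part of the exon junction complex, and Eif4h, a small relative of eIF4B in function, had log2 fold changes of 0.06 ± 0.07 and 0.11 ± 0.07.

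None of the cap-binding, scaffold and 4E-binding protein genes passed the test, 0 of 7 and 0 of 3 in limma. Of all tested genes 30.4% were called. At an unadjusted p under 0.05, where no share of all tested genes was counted, 1 of each group was higher, Eif4e and Eif4ebp2. DESeq2 and edgeR each called Eif4e higher, with adjusted p = 0.0153 and 0.0398, and neither tool called another gene of these groups. Eif4e, the cap-binding subunit of eIF4F, had 224, 205 and 216 CPM in KO and 160.0, 192 and 193 CPM in WT. All KO libraries were above all WT libraries, with a log2 fold change of 0.25 ± 0.09 (limma adjusted p = 0.0637, 95% interval 0.05 to 0.45). Without WT replicate 1, its lowest library, the log2 fold change was 0.16 (limma adjusted p = 0.0694).

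The relatives of Eif4e showed smaller differences. Eif4e2 encodes 4EHP, which binds the cap without eIF4G and represses translation, and had 152, 155 and 147 CPM in KO and 154, 146 and 142 CPM in WT. Eif4e3 had 25.8, 26.4 and 27.6 CPM in KO and 22.3, 24.0 and 25.8 CPM in WT, touching at the edge. Their log2 fold changes were 0.04 ± 0.06 and 0.15 ± 0.08 (95% intervals -0.10 to 0.18 and -0.03 to 0.33).

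Of the 4E-binding proteins, Eif4ebp1 had 89.0, 105 and 92.8 CPM in KO and 94.5, 68.2 and 74.2 CPM in WT. WT replicate 1 lay inside the KO range, and the other WT libraries lay below it. The log2 fold change was 0.28 ± 0.12 (limma adjusted p = 0.124) with all libraries, and 0.42 (limma adjusted p = 0.00755) without WT replicate 1. Eif4ebp2 had 92.3, 101 and 99.0 CPM in KO, above the 89.7, 87.7 and 86.8 CPM in WT (log2 fold change 0.14 ± 0.06, limma adjusted p = 0.116). Eif4ebp3 was the least abundant in CPM of the tested members, with 10.6, 10.6 and 12.5 CPM in KO and 12.7, 12.4 and 10.7 CPM in WT (log2 fold change -0.08 ± 0.10, 95% interval -0.32 to 0.16). Of its exon bases 67.3% also belong to a readthrough gene on the same strand, so its reads are uncertain.

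**Figure D3:**
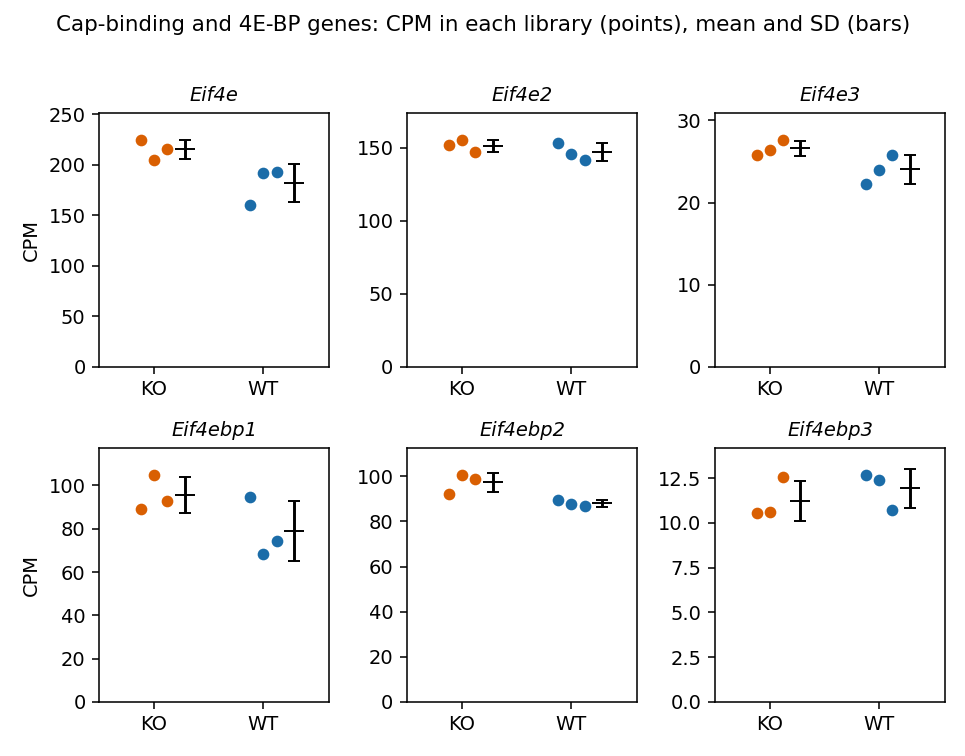
CPM of the cap-binding genes Eif4e, Eif4e2 and Eif4e3 and of the 4E-binding protein genes in each library (points, KO left and WT right; bars are mean and SD, n = 3). For Eif4ebp1, WT replicate 1 at 94.5 CPM lies within the KO values, and WT replicates 2 and 3 at 68.2 and 74.2 CPM lie below them.

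The scaffolds were near equal between genotypes. Eif4g1 averaged 1007 ± 52.6 CPM in KO and 1005 ± 60.1 CPM in WT (SD, n = 3 each; log2 fold change 0.003 ± 0.07, 95% interval -0.17 to 0.17). Eif4g2, which encodes the scaffold DAP5 that lacks the eIF4E site, averaged 1769 ± 35.9 CPM in KO and 1737 ± 193 CPM in WT. Eif4g3 and Eif4enif1, which carries eIF4E into the nucleus, had log2 fold changes of -0.05 ± 0.10 and -0.07 ± 0.08.

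Of the 3 tested late-acting factors 1 rose, Eif6, beside 13.5% of all tested genes. It encodes eIF6, which binds the large ribosomal subunit and keeps it from joining the small one (ENSMUSG00000027613.15, chromosome 2, 155819832 to 155826925, minus strand). Eif6 had 170.4, 189.7 and 163 CPM in KO, all above the 143, 117 and 120.3 CPM in WT, with a log2 fold change of 0.46 ± 0.10 (1.37-fold; limma adjusted p = 0.00881). Eif5a, which carries the amino acid hypusine and helps ribosomes through difficult stretches, had 1573, 1691 and 1479.8 CPM in KO and 1568, 1351 and 1495 CPM in WT. Eif5b, the GTPase of subunit joining, had 326, 253 and 322 CPM in KO and 281, 312 and 296 CPM in WT. Both overlapped (log2 fold changes 0.10 ± 0.08 and 0.01 ± 0.10).

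Of the 5 members that rose, Eif2s2, Eif6 and Eif3m lie on chromosome 2, and they are the 3 tested members there. Genes of chromosome 2 were higher in KO as a group: 499 of 856 tested genes there (58.3%) were called higher and 44 lower, with a median log2 fold change of 0.34. Eif3m and Eif6 lay 0.09 and 0.12 above that median, and 35.5% and 31.5% of the tested genes on the chromosome were as high or higher. Eif2s2 lay 0.27 above it, with 12.6% as high or higher. After the median shift of each chromosome was subtracted in each library, the log2 fold changes were 0.27 for Eif2s2 (limma adjusted p = 0.0613), 0.12 for Eif6 (limma adjusted p = 0.409) and 0.09 for Eif3m (limma adjusted p = 0.460). All 3 calls were thus lost with that centring and with no other setting.

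Outside chromosome 2, 2 of 44 tested members rose (4.55%) and 3 fell (6.82%), against 9.60% and 17.9% of all tested genes outside it. Centring by chromosome added the calls of Eif4e, Eif4e3, Eif1ax and Eif3c as higher, with log2 fold changes of 0.31, 0.31, 0.31 and 0.26 (limma adjusted p = 0.0163, 0.0208, 0.0266 and 0.0243), and removed those of Eif3h and Eif3f (limma adjusted p = 0.0729 and 0.0909). Eif4e3 lies on chromosome 6, whose median was -0.16.

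**Figure D4:**
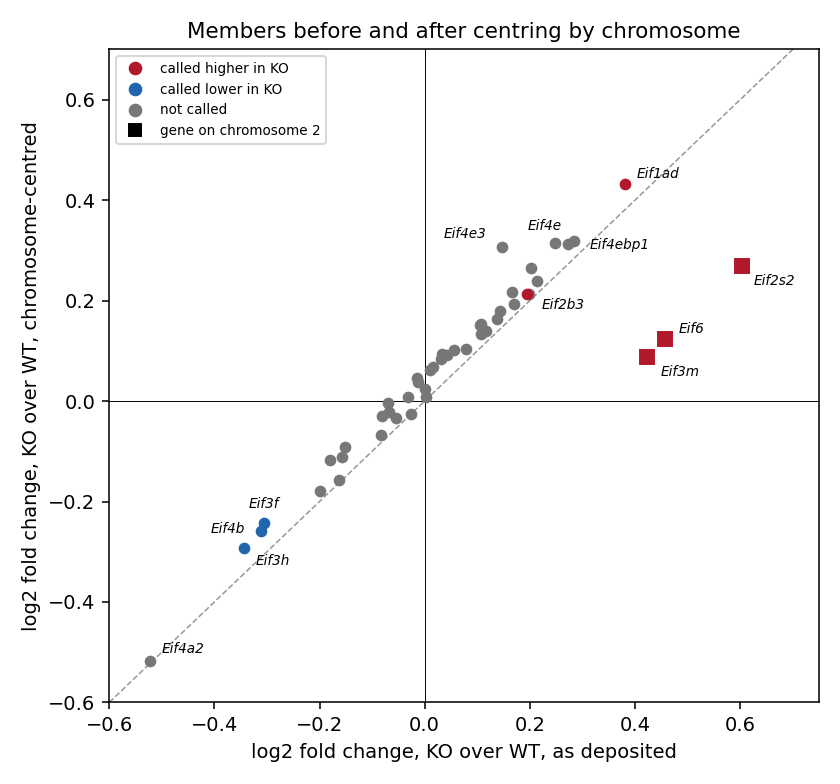
Log2 fold change of each tested member, KO over WT, from the CPM as deposited (x axis) and after each library's median shift per chromosome was subtracted (y axis); the dashed line marks equal values and colours give the call from the CPM as deposited. The chromosome 2 genes Eif2s2, Eif6 and Eif3m lie at 0.60, 0.46 and 0.42 on the x axis and at 0.27, 0.12 and 0.09 on the y axis, and Eif1ad lies at 0.38 and 0.43.

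Sequence at the transcription start was examined because the mRNAs of many ribosomal proteins and elongation factors begin with a C and a run of pyrimidines (the 5′ TOP motif), through which mTORC1 controls their translation. The RefSeq promoter table (GRCm38.p6) held 39 of the 51 members. The windows below cover 20 bases before and 10 bases from the annotated start, for the called members with an entry and for the X and Y copies of the eIF2 gamma gene, 5′ to 3′. Capitals mark a run of at least 5 letters, C followed by C or T only, that opens within 5 bases of the annotated start.
Eif3f (chr7:108934395-108934424, plus strand; fell): gctcttctgttctaggCTCTCTCTCTTTCT
Eif4b (chr15:102073753-102073782, plus strand; fell): gcgcaggtcttcccgtcggacgccgcgcca
Eif2s2 (chr2:154892897-154892926, minus strand; rose): agaagcacgtaaggttggctttactgtacg
Eif3m (chr2:105017018-105017047, minus strand; rose): ctctcttttccggtcggcgtgtttctggat
Eif1ad (chr19:5366793-5366822, plus strand; rose): aagccatccggctttcgatggCTTTTgttt
Eif2s3x (chrX:94212642-94212671, minus strand; not called): ggcggctgccgagcattttCCTTTTCTCTC
Eif2s3y (chrY:1010575-1010604, plus strand; not called): cgacagcggaggccacagccaCTTCCTTCT

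Such a run was found for 10 of the 39 members (25.6%), against 23.6% of the 8487 tested genes with an entry, so the members are near the background. The run of Eif3f is 15 letters long, passes through the annotated start and goes on beyond the window, and those of Eif2s3x and Eif2s3y are each 12 letters long. Eif4b, which fell as well, had no such run at its annotated start. Start sites were not measured in these cells, and a run in this window says nothing about how the mRNA is translated. No entry was held for Eif3h, Eif6 and Eif2b3 among the called members.

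Levels can be compared between genes after division by transcript length, here that of the main coding transcript in GENCODE. On this scale (CPM per kilobase, mean of the 6 libraries) Eif5a stood highest at 1062, followed by Eif4a1 at 734, and both kept these ranks with the length of all exons joined. The tested eIF3 subunits ran from 135 (Eif3g) to 318 (Eif3h), and all tested members from 10.1 (Eif4e3) to 1062. The eIF2B subunits ran from 12.7 (Eif2b4) to 50.8 (Eif2b5). With all exons joined, eIF3 ran from 57.2 (Eif3d) to 255 (Eif3h) and eIF2B from 7.72 (Eif2b3) to 50.04 (Eif2b5).

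Relatives differed widely. Eif4a1 stood at 734, Eif4a3 at 138 and Eif4a2 at 44.9 CPM per kilobase. Eif4g2 and Eif4g1 stood at 219 and 178, and Eif4g3 at 30.0. Eif4e2 (82.7) was above Eif4e (39.7), and Eif4e3 was lower than both (10.1). The order of Eif4e2 and Eif4e also depends on the length used: with all exons joined they stood at 19.9 and 33.0. Among the 4E-binding proteins Eif4ebp1 averaged 47.8 ± 4.13 in KO and 39.5 ± 6.92 in WT, Eif4ebp2 16.8 ± 0.755 in KO and 15.2 ± 0.259 in WT, and Eif4ebp3 15.1 ± 1.52 in KO and 16.04 ± 1.44 in WT (SD, n = 3 each). The last pair lay within the spread of the libraries.

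Libraries of a genotype differed more in WT than in KO. The median coefficient of variation of the tested members was 4.57% in KO and 7.56% in WT. WT replicate 1 was the highest WT library for 27 members and the lowest for 16. Its largest distances below the other WT libraries were in Eif5 (375 CPM, against 586 and 550.4 CPM), Eif4a2, Eif1a, Eif2s3y and Eif1ax, and above them in Eif4ebp1. Eif5, which makes eIF2 hydrolyse its GTP, had 540.3, 504 and 566 CPM in KO, and its log2 fold change was 0.12 ± 0.16 with all libraries and -0.08 without WT replicate 1, not called in either. Reads of Rn45s, the precursor of ribosomal RNA, made up 1.40%, 0.542% and 0.635% of the KO libraries and 2.75%, 0.381% and 2.43% of the WT libraries; its part in these differences was not tested.

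**Figure D5:**
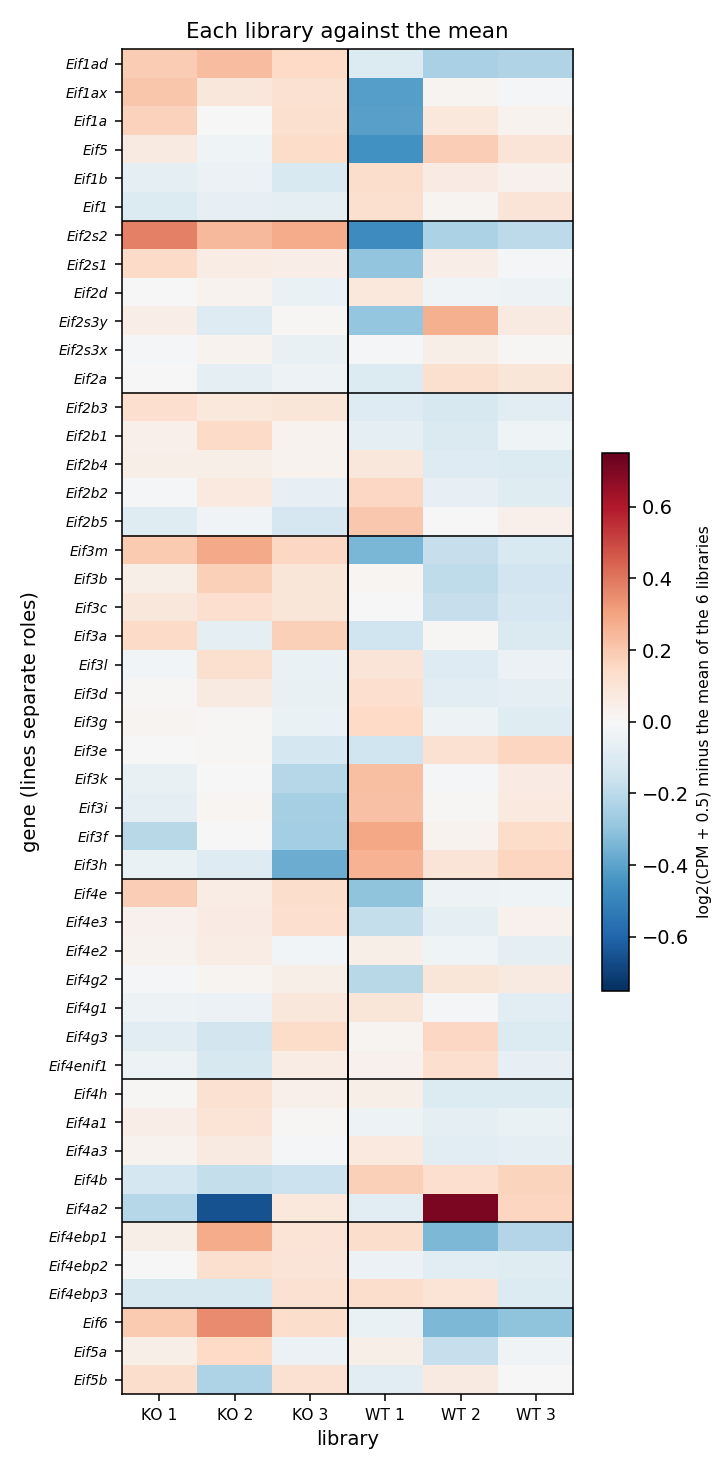
Each tested member (rows, grouped by role) in each library (columns, KO left and WT right), coloured by its log2(CPM + 0.5) minus the mean of the 6 libraries. WT replicate 1 is blue for Eif5, Eif1a, Eif1ax and Eif2s2 and red for Eif3f and Eif3h, and Eif4a2 varies most within both genotypes.

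Other genes of translation control were examined in 4 lists. Of their 46 tested genes limma called 2 higher and 6 lower, where 13.5% and 16.9% of all tested genes were called. TMM scaling called 7 higher and 3 lower, and 1840 and 1569 of all 10614 tested genes. The share of all tested genes at an unadjusted p under 0.05 was not counted, so counts at that threshold have no background. The list of eIF2 alpha kinases and phosphatase has 7 genes, among them Gcn1l1, which is neither. Of the 7, 0 were called by limma, and 1, Eif2ak2, was higher at an unadjusted p under 0.05. Both edgeR and DESeq2 called Eif2ak2 higher. Of 12 genes of mTORC1 and its S6 kinase branch, 0 rose and 2 fell: Rps6, the ribosomal protein that S6 kinases phosphorylate (1083 ± 79.2 CPM in KO and 1342 ± 99.6 CPM in WT), and Rps6kb2, an S6 kinase (log2 fold change -0.29 ± 0.09). At an unadjusted p under 0.05, 0 genes of this list were higher and 2 lower, the same Rps6 and Rps6kb2. DESeq2 called both lower. Neither was called by edgeR, with TMM scaling, quantile normalization, no filter, the replicate block or centring by chromosome, or without KO replicate 1 or KO replicate 3. Rps6 was also lost without WT replicate 3, and Rps6kb2 without KO replicate 2, WT replicate 1 or WT replicate 2. The kinase gene Mtor had a log2 fold change of 0.13 ± 0.08 and was not called.

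Of 17 partners of the cap and the poly(A) tail, 2 rose and 1 fell. At an unadjusted p under 0.05, 6 were higher and 1 lower, with no share of all tested genes counted to set beside them. DESeq2 called 5 higher, TMM scaling 4 and edgeR 2, and each called 1 lower. Of all 10614 tested genes they called 1870, 1840 and 1639 higher. Pdcd4, which blocks eIF4A, fell to 29.2 ± 1.05 CPM in KO, against 45.4 ± 4.36 CPM in WT (log2 fold change -0.62 ± 0.09, limma adjusted p = 0.00130). Cyfip1, which binds eIF4E in the complex with FMRP, rose to 248 ± 7.19 CPM in KO, against 186 ± 0.677 CPM in WT (log2 fold change 0.41 ± 0.06, limma adjusted p = 0.00113). Paip2b, an inhibitor of poly(A)-binding protein, rose to 105 ± 4.22 CPM in KO, against 80.1 ± 5.12 CPM in WT.

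Of 10 genes of elongation, termination and recycling, 0 rose and 3 fell, beside 30.4% of all tested genes called. Eef2k, the kinase that slows elongation by phosphorylating eEF2, fell to 2.39 ± 0.235 CPM in KO, against 5.21 ± 0.277 CPM in WT (log2 fold change -0.98 ± 0.10, limma adjusted p = 0.000296). Eef1a1, which delivers tRNA to the ribosome, and Eef1b2, a part of its exchange factor, fell too (log2 fold changes -0.41 ± 0.10 and -0.37 ± 0.08, limma adjusted p = 0.0180 and 0.00943). The Eef1a1 call was lost with TMM scaling, quantile normalization, no filter, the replicate block and centring by chromosome, and without KO replicate 1 or WT replicate 3. At an unadjusted p under 0.05, 2 genes of this list were higher and 5 lower, with no share of all tested genes counted. Of this list edgeR called 1 higher and 3 lower, and DESeq2 called 2 higher and 3 lower. Of all 10614 tested genes edgeR called 1639 higher and 1720 lower, and DESeq2 called 1870 higher and 1888 lower.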

How the data were processed

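The submitters' processing notes name Trim Galore, FastQC, Picard, SAMtools and STAR 2.6.0a with mm10. Per the file headers, alignments were sorted and duplicates removed. How reads were assigned to genes, with which annotation and strand setting, was not given in the sources used here. CPM were deposited by the authors for 24848 symbols. All values (100%) were whole multiples of 1 read (tolerance 0.01), worth 0.0142 to 0.0198 CPM, so reads were recovered; limits from counts cover counting error only.

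The main test was limma 3.58.1 (R 4.3.3, eBayes with a trend, Benjamini-Hochberg) on log2(CPM + 0.5), a scale that understates changes of low genes, for genes reaching 1 CPM in 3 libraries; it was tested on simulated data. On recovered reads, the edgeR 4.0.16 quasi-likelihood test called 3359 genes and DESeq2 1.42.0 called 3758, against 3230 in limma. The 18 alternatives also changed the pseudocount, filter, scaling and trend, added the replicate block, centred each chromosome (Y, with 4 tested genes, was not centred) and left out each library. Coordinates and lengths came from GENCODE M21 (mm10), where 24305 symbols matched.

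By rule, full values went to called members, the 4E-binding protein, cap-binding and eIF2 subunit genes, and the 2 most abundant members per kilobase, and values to up to 4 called genes of each outside list. Library values of Eif1, Eif1b, Eif3c, Eif4a2, Eif5 and Eif5b, and Mtor and Eif2ak2, were added after seeing them. The members and lists were chosen with earlier results of these data known.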

Additional observations from a re-analysis of the deposited data

How the results depend on the processing

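Of the 8 called members, 1 (Eif1ad) was called under all 18 alternatives, and none of the 8 (0) changed sign under any of them. Leaving out 1 library could not change the sign, because the genotypes did not overlap in any of the 8. The filters, the fit without the trend and the replicate block left the estimates as they were. The constant sign is therefore little evidence of stability. Of the 39 others, 9 were called under at least 1. The count of members called lower in KO, 3 in the main setting, was 1 with TMM scaling, the replicate block, edgeR and centring by chromosome. All tested genes called lower numbered 1794 in the main setting, and 1569, 1118, 1720 and 1631 in these settings, in that order. The count of members called higher, 5, was 9 with DESeq2, which called 1870 of all tested genes higher, against 1436 in the main setting. Over all tested genes 3230 were called, and 2009 with the replicate block. Of the translation control genes outside the Eif names, 2 were called higher and 6 lower. With TMM scaling these were 7 and 3. Higher calls were 4 with edgeR, 8 with DESeq2 and 5 with centring by chromosome. Lower calls were 3 without a filter on low values, 3 with quantile normalization and 3 with the replicate block.

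Leaving out each library gave 1918 to 3527 called genes, 4 to 8 members higher and 1 to 3 lower, and 2 to 5 translation control genes higher and 3 to 6 lower. The run without KO replicate 1 gave 1918 genes and those without KO replicate 2, KO replicate 3 and WT replicate 3 gave 2136, 2299 and 2231, against 3527 without WT replicate 1. The cause of these changes was not tested, beyond the smaller number of samples.

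The replicate numbers were used as a block although they mark no shared origin in the labels. Same-numbered KO and WT libraries had correlations of their deviations from the group means of -0.25, -0.64 and -0.17. The other pairs ran from -0.44 (KO replicate 3 with WT replicate 1) to 0.61 (KO replicate 3 with WT replicate 2). Deviations from a mean of 3 libraries are tied to each other, so these values do not settle whether the samples were paired. With the block, Eif2b3, Eif3f and Eif4b lost their calls and 4 members were called higher and 1 lower.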

Other observations

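Of the members, 4 had too few reads to be tested. Eif4e1b, a cap-binding gene known from oocytes, had 1 read in KO replicate 2 and 0 in the other libraries. Eif5a2, a paralog of Eif5a, had 0, 2 and 0 reads in KO and 2, 1 and 3 in WT. Both genotypes lay at or under the limit of 3 reads that a count of 0 allows, so no fold is given. Eif3j1 and Eif3j2 had 0 reads in every library.

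Levels of related genes were set against each other within each library. Per kilobase, Eif1 stood 5.43 ± 0.16 times above Eif1b in KO and 5.44 ± 0.21 times in WT (SD, n = 3 each). Eif1a stood 2.76 ± 0.09 times above Eif1ax in KO and 2.90 ± 0.05 times in WT, although both were at their lowest in WT replicate 1. Eif2s3x over Eif2s3y was 0.912 ± 0.070 in KO and 0.924 ± 0.17 in WT. This ratio varied within WT, at 1.11, 0.783 and 0.879. Of the read-length windows of Eif2s3x 34.8% also occur in Gm2223, and how such reads were counted is unknown. Eif4a1 over Eif4a2 was 20.4, 28.8 and 16.2 in KO and 17.6, 9.92 and 14.7 in WT. The proportion of Eif4ebp1 to Eif4e was 1.11 ± 0.15 in KO and 1.11 ± 0.32 in WT. Of the 8 ratios computed, those of Eif2s2 over Eif2s1 and of Eif1a over Eif1ax had an exact two-sided permutation p of 0.1, the smallest possible here, and the other 6 had p of 0.2 to 1.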
